A study of Mus musculus with 6 samples.

Results

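Skeletal muscle fibres form when mononucleated myoblasts, the progeny of muscle stem cells (MuSCs), align, adhere and fuse. Cadherins, NCAM and junctional adhesion molecules hold neighbouring cells together and signal to the cell interior. The membranes are then merged by Myomaker (*Mymk*) and Myomixer (*Mymx*), membrane proteins of muscle that act one after the other in hemifusion and in the opening of the fusion pore. Ferlins such as Myoferlin and Dysferlin bind membranes in response to calcium and serve fusion and membrane repair. Transcription of 10 genes of this process was described here: the fusion proteins *Mymk* and *Mymx*, the ferlins *Myof* and *Dysf*, the fusion inhibitor *Tmem182*, the cell adhesion molecules *Cdh15*, *Cdh2*, *Ncam1* and *Jam3*, and the cadherin-bound co-receptor *Cdon*. The genes were listed by symbol, and all 10 were found among the 14546 genes of the PRO-seq table. The list had been chosen by how these genes, and *Mymx* against the others, differed between the genotypes in the same libraries, so the differences between the groups are given as a description. Where a fit across all genes called some of the 10, this is stated beside the share of all genes called and supports nothing about them.

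PRO-seq (precision nuclear run-on sequencing) maps RNA polymerases that are elongating at the time of the run-on, so that its values stand for ongoing transcription and not for amounts of mRNA. It had been done on proliferating MuSCs from mice that carried Pax7CreERT, a tamoxifen-inducible Cre driven from *Pax7*, with either wild-type *Kmt5b* alleles (genotype label Pax7CreERT/Suv4-20h1WT, here Ctrl, n = 3) or floxed *Kmt5b* alleles (Pax7CreERT/Suv4-20h1KO, here *Kmt5b* sKO, n = 3). Suv4-20h1 is an older name of *Kmt5b*, which encodes a methyltransferase of lysine 20 of histone H4. The study's methods give a C57BL/6 background, tamoxifen by intraperitoneal injection at 8 to 12 weeks of age, purification of MuSCs by magnetic sorting, and culture on Matrigel with serum, LIF and bFGF. The recombination is limited to cells that express *Pax7* at the time of the injection. The study describes the PRO-seq replicates as biological, although the labels do not tie each library to an animal, and p-values measure the spread between these libraries.

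The reads behind the values of the listed genes numbered 926904 to 3246052 per library in the TSS region, which is the first 400 nt of a transcript, and 7425426 to 16249109 in the gene body, which is the remainder. Gene body values of *Kmt5b* were 30.6 to 38.5 TPM in Ctrl and 35.0 to 42.6 TPM in the libraries labelled *Kmt5b* sKO. As a value over the whole gene does not measure the floxed part, the deletion could not be checked. The Y-linked gene *Uty* stood at 0.06 and 0.14 TPM in Ctrl replicates 2 and 1 and at 0.53 TPM in *Kmt5b* sKO replicate 3, against 5.46 to 9.00 TPM in the remaining libraries. Markers of muscle stem cells summed to 1561 to 2280 TPM in 5 libraries and 2745 TPM in *Kmt5b* sKO replicate 3. The largest parts were *Myod1* (855 to 1328 TPM) and *Des* (351 to 921 TPM). On the log2 scale 5 of the 9 markers had a higher and 4 a lower gene body mean in *Kmt5b* sKO. Lower were *Pax7*, with means of 38.6 TPM in Ctrl and 27.8 TPM in *Kmt5b* sKO, and *Myf5*, with 67.2 and 57.1 TPM, among others. For both the groups overlapped, with log2 differences of -0.41 ± 0.25 and -0.19 ± 0.26. Of the markers of other cell types, those of fibroblasts summed to 117 to 179 TPM, those of leukocytes, nearly all of it *Cd68*, to 219 to 425 TPM and those of smooth muscle and pericytes to 304 to 585 TPM, with overlapping groups. Markers of Schwann cells and neurons summed to 12.9 to 16.9 TPM in Ctrl and 20.6 to 30.8 TPM in *Kmt5b* sKO, and those of endothelial cells to 3.45 to 5.28 TPM and 5.95 to 7.35 TPM, so that neither overlapped, and *Sox10*, a transcription factor of Schwann cells, was higher in the *Kmt5b* sKO gene body by a log2 difference of 1.56 ± 0.31 (limma adjusted p = 0.0754). Markers of differentiating myocytes, such as *Myog*, *Myh3* and *Acta1*, summed to 2201, 2943 and 1365 TPM in the Ctrl libraries, against 3260, 3084 and 4026 TPM in those of *Kmt5b* sKO, so that the groups did not overlap. The same held for markers of mature fibres, with 713 to 1148 TPM in Ctrl and 1203 to 1954 TPM in *Kmt5b* sKO. Of the 9 markers of differentiating myocytes, 8 had a higher gene body mean in *Kmt5b* sKO, although the groups overlapped for *Myog*. The other, *Cdkn1c*, held 17.6 ± 13.5 TPM in Ctrl and 4.86 ± 3.74 TPM in *Kmt5b* sKO, with overlapping groups. The part of these markers in the values below was not tested, and more differentiating cells and more transcription per cell cannot be told apart in bulk libraries.

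All 10 genes were transcribed in every library. Gene body levels are in TPM, which divides by length and allows levels of different genes to be compared. In Ctrl MuSCs the order ran from *Mymx* (290 ± 68.2 TPM, SD, n = 3) over *Mymk* (220 ± 63.4), *Cdh15* (186 ± 77.1), *Cdon* (163 ± 26.5), *Ncam1* (144 ± 21.4), *Myof* (61.0 ± 4.86), *Jam3* (53.9 ± 17.8), *Cdh2* (39.0 ± 8.73) and *Tmem182* (31.2 ± 2.64) to *Dysf* (20.0 ± 6.05). The libraries of neighbours in this order overlapped except for *Ncam1* above *Myof* and *Tmem182* above *Dysf*. In *Kmt5b* sKO MuSCs *Mymk* (288 ± 46.1 TPM) came before *Mymx* (263 ± 31.1), with overlapping libraries, and *Dysf* (37.6 ± 4.68) was again last. Both fusion proteins belonged to the most transcribed genes, as *Mymx* lay at percentile 99.1 and *Mymk* at percentile 98.6 of the Ctrl gene body levels of the 12451 genes tested, while *Dysf* lay at percentile 58.9.

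**Figure D1:**
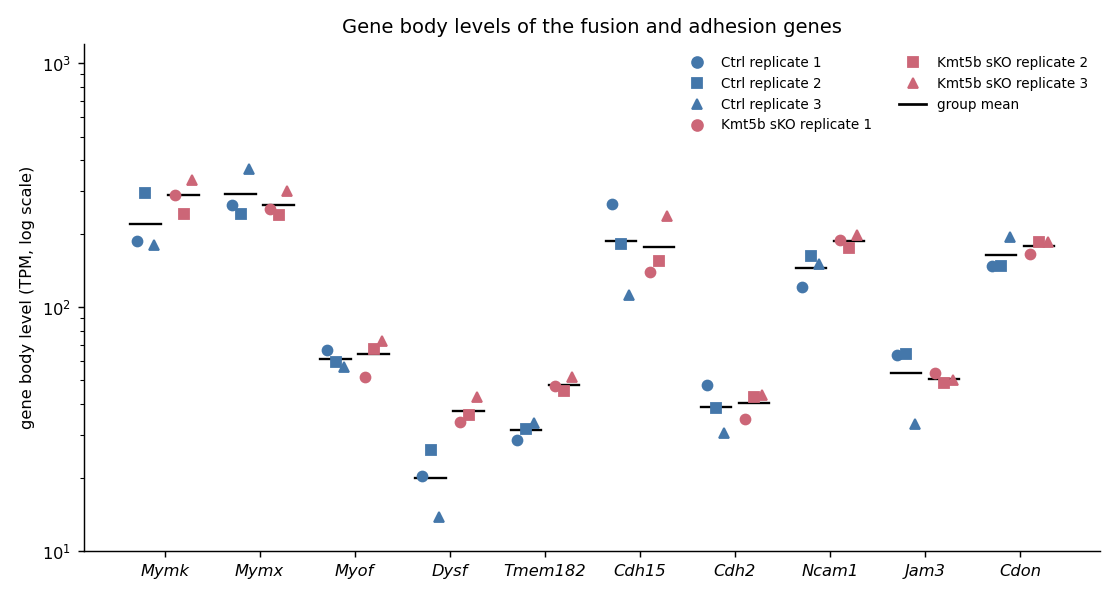
Gene body levels (TPM, log scale) of the 10 fusion and adhesion genes in 3 Ctrl (blue) and 3 Kmt5b sKO (red) libraries, with a marker shape per replicate and a bar at each group mean. The 3 Kmt5b sKO libraries lay above all Ctrl libraries for Dysf, Tmem182 and Ncam1 and overlapped them for the other 7 genes.

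*Mymk* encodes Myomaker, which is needed on both cells of a fusing pair. The gene has 5 exons and spans positions 27061636 to 27072179 of chromosome 2 (GRCm38, minus strand). Its TSS region held 165, 213 and 195 RPM (reads scaled to a total of TSS reads that is the same for every library) in Ctrl replicates 1 to 3 and 292, 250 and 382 RPM in *Kmt5b* sKO replicates 1 to 3. Every *Kmt5b* sKO library was thus above every Ctrl library, and the log2 difference was 0.67 ± 0.22 (SE). The gene body held 186, 293 and 180 TPM in the Ctrl libraries, against 289, 241 and 334 TPM in those of *Kmt5b* sKO. Here the groups overlapped, because Ctrl replicate 2 exceeded *Kmt5b* sKO replicates 1 and 2, and the log2 difference was 0.41 ± 0.23.

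*Mymx* encodes Myomixer, a small protein that completes the merging of membranes which Myomaker begins. The gene spans 45600971 to 45602067 of chromosome 17 (minus strand), and its gene body of 696 nt lies wholly in an exon, so that 109 to 366 reads stood behind each value, the fewest among the 10 genes. Gene body values were 261, 241 and 368 TPM in the Ctrl libraries, against 252, 239 and 298 TPM in those of *Kmt5b* sKO. The groups overlapped and the highest library was a Ctrl library, with a log2 difference of -0.12 ± 0.20. At the TSS *Mymx* held 149, 167 and 148 RPM in the Ctrl libraries, against 142, 135 and 150 RPM in those of *Kmt5b* sKO, a log2 difference of -0.12 ± 0.20. These libraries overlapped too, and *Mymx* was the member with the lowest difference in both regions. The gene *Slc29a1* on the same strand lies downstream of *Mymx* and begins 1365 nt beyond its end.

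Set against each other within a library, *Mymx* and *Mymk* differed in their ratio. The gene body ratio of *Mymx* to *Mymk* was 1.40, 0.822 and 2.04 in the Ctrl libraries, against 0.874, 0.991 and 0.894 in those of *Kmt5b* sKO. These ranges overlapped, since Ctrl replicate 2 had the lowest ratio of all. The TSS region ratio was 0.902, 0.787 and 0.759 in the Ctrl libraries, against 0.485, 0.543 and 0.393 in those of *Kmt5b* sKO. All 3 Ctrl libraries were above all 3 *Kmt5b* sKO libraries, and *Mymk* exceeded *Mymx* in all 6. Over the summed TSS levels of the 10 genes, *Mymx* made up 15.8% to 20.0% in Ctrl and 11.2% to 14.1% in *Kmt5b* sKO. The sum itself was 752 to 936 RPM in Ctrl and 970 to 1335 RPM in *Kmt5b* sKO. In the gene body the share of *Mymx* was 19.4% to 31.4% in Ctrl and 19.4% to 20.1% in *Kmt5b* sKO, with overlapping groups. As *Mymx* had been singled out for this contrast, the ratios are a description.

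**Figure D2:**
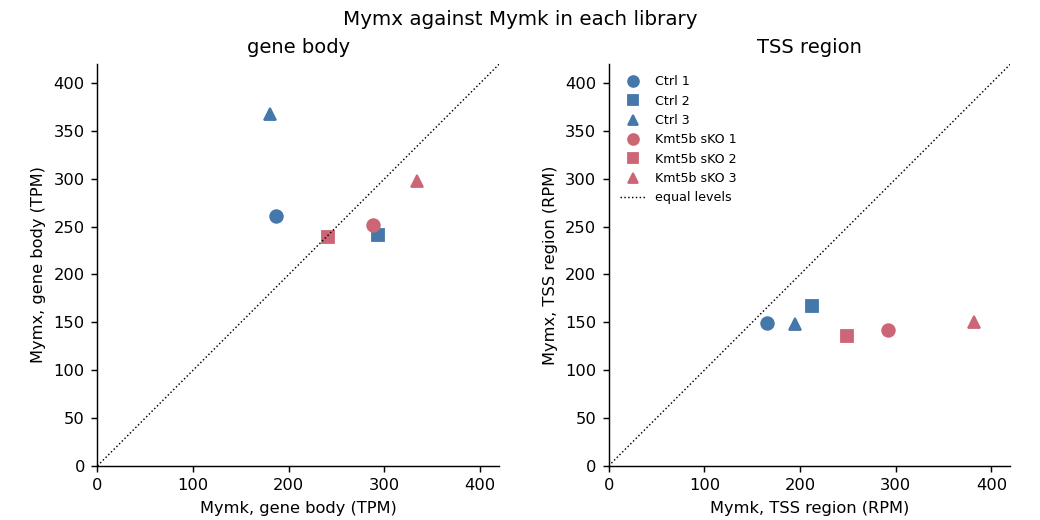
Level of Mymx (vertical axis) against Mymk (horizontal axis) in the gene body (TPM, left) and the TSS region (RPM, right), 1 point per library, Ctrl in blue and Kmt5b sKO in red, with a dotted line at equal levels. In the TSS region all libraries lay below the line and the Kmt5b sKO libraries were shifted along the Mymk axis, from at most 213 RPM to at least 250 RPM, with Mymx between 135 and 167 RPM throughout.

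The genes whose gene body pattern over the 6 libraries was most like that of *Mymx*, by Pearson correlation of log2 values, were *Znhit2* (r = 0.985), *Etfdh* (r = 0.979), *Lyl1* (r = 0.964), *Mtfr2* (r = 0.961) and *Pip5kl1* (r = 0.956). *Etfdh* encodes an enzyme of mitochondrial electron transfer and *Lyl1* a basic helix-loop-helix factor. All 5 had their highest value in Ctrl replicate 3, as did *Mymx*. For *Mymk* they were *Lrtm1* (r = 0.998), *Insc* (r = 0.995), *Lmod3* (r = 0.993), *Xdh* (r = 0.993) and *3110002H16Rik* (r = 0.991), of which *Lmod3* encodes a leiomodin of the sarcomere thin filament. All 5 had their highest value in *Kmt5b* sKO replicate 3, as did *Mymk*. Among 12450 other genes, 44 had r over 0.9 with *Mymx* and 310 with *Mymk*. With 6 libraries that share their depth and scaling across genes, these values are descriptive.

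*Dysf* encodes Dysferlin, a ferlin of the muscle cell surface that takes part in resealing of torn membrane. Its 55 exons span 84008590 to 84211060 of chromosome 6 (plus strand). TSS values of *Dysf* were 18.2, 16.7 and 12.9 RPM in the Ctrl libraries, against 42.6, 39.0 and 47.8 RPM in those of *Kmt5b* sKO. The groups were far apart, with a log2 difference of 1.42 ± 0.27, the largest of the 10 genes. In the gene body they were 20.2, 25.9 and 13.8 TPM in the Ctrl libraries, against 33.9, 36.1 and 42.9 TPM in those of *Kmt5b* sKO, a log2 difference of 0.94 ± 0.23. The groups were again apart, and Ctrl replicate 3 was lowest in both regions, as it was for the summed markers of differentiating myocytes. An antisense transcript, *Gm33024*, overlaps 92 nt of the TSS region, but reads had been counted on the strand of the gene.

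*Tmem182* encodes a transmembrane protein of muscle that is known to restrain fusion. The gene is found at 40805601 to 40856887 of chromosome 1 (plus strand). Its gene body held 28.4, 31.6 and 33.6 TPM in the Ctrl libraries, against 47.5, 45.2 and 51.8 TPM in those of *Kmt5b* sKO, a log2 difference of 0.62 ± 0.13. Libraries of a group lay close together and the groups did not overlap. TSS values were 19.6, 23.6 and 21.2 RPM in the Ctrl libraries, against 36.4, 33.0 and 77.7 RPM in those of *Kmt5b* sKO, a log2 difference of 1.07 ± 0.30. Here too the groups did not overlap, although *Kmt5b* sKO replicate 3 stood well above its group, and without it the difference was 0.68.

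*Myof* encodes Myoferlin, a ferlin of myoblasts that is needed for large myotubes to form. Its 54 exons span 37899310 to 38043351 of chromosome 19 (minus strand). For *Myof* the gene body held 66.4, 59.6 and 57.0 TPM in the Ctrl libraries, against 51.9, 67.4 and 72.9 TPM in those of *Kmt5b* sKO, a log2 difference of 0.06 ± 0.16. Near the start *Myof* held 47.0, 46.5 and 63.1 RPM in the Ctrl libraries, against 54.4, 72.0 and 90.6 RPM in those of *Kmt5b* sKO, a log2 difference of 0.45 ± 0.24. The groups overlapped in both regions. The curated RefSeq start of *Myof* lies 226 nt upstream of the listed one, so that the listed TSS region begins inside that transcript, whereas that of *Dysf* nearest to the listed start differs by 8 nt.

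The DNA just upstream of the start is shown for *Tmem182*, whose groups were apart in both regions, and for *Myof*, whose groups overlapped. Both are RefSeq sequences of GRCm38.p6, cut so that they end before every annotated start of the gene, and the capitals mark CANNTG, the E-box letters that myogenic basic helix-loop-helix factors can bind. The stretch of *Tmem182* is chr1:40805351-40805572 on the plus strand and that of *Myof* is chr19:38043578-38043827 on the minus strand, each written 5′ to 3′.
Tmem182: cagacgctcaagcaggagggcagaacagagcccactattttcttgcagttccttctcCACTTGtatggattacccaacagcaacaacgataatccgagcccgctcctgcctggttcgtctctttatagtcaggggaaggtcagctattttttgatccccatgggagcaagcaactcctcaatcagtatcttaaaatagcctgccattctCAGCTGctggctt
Myof: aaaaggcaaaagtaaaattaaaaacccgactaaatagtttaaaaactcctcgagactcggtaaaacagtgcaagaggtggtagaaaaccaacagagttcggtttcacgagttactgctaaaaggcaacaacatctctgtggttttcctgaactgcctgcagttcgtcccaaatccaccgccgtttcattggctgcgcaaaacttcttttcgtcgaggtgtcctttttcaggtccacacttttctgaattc
The *Tmem182* stretch holds 2 such letter groups. The first, CACTTG, lies 193 nt before the RefSeq start, and the second, CAGCTG, lies 41 nt before it. The *Myof* stretch holds 0. RefSeq windows of the 250 nt before the start were given for 5 of the 10 genes (*Myof*, *Cdh15*, *Cdon*, *Dysf* and *Tmem182*). The *Cdh15* window holds 3 matches to CANNTG and the *Cdon* window and both *Dysf* windows hold 0. Of 32851 such windows of all genes, 66.2% hold at least 1 match to CANNTG and 31.8% at least 2, while 13.0% of the windows hold the letters CAGCTG. The first pattern was read on both strands alike, as it is its own reverse complement, and every match to the second is also a match to the first. The letters TATAAA, searched on both strands, is found in the *Tmem182* window and in 12.4% of all windows. A match says only that the letters are there.

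*Cdh15* encodes M-cadherin, the classical cadherin of satellite cells and myoblasts. Its position is 122847966 to 122867397 of chromosome 8 (plus strand). *Cdh15* held gene body levels of 266, 181 and 112 TPM in the Ctrl libraries, against 139, 155 and 236 TPM in those of *Kmt5b* sKO, a log2 difference of -0.03 ± 0.34. The groups overlapped over nearly their whole range, and libraries of the Ctrl group alone spanned 112 to 266 TPM. Its TSS region held 4.36, 2.87 and 5.30 RPM in the Ctrl libraries, against 4.26, 7.26 and 5.06 RPM in those of *Kmt5b* sKO, from 5 to 28 reads per library. These were the lowest TSS values among the 10 genes, beside the third highest gene body level in Ctrl. The listed start differs from that of RefSeq, which lies 408 nt downstream and so just beyond the listed TSS region of 400 nt. The gene model *Gm20388* covers the whole of *Cdh15* on the same strand, so that reads of the gene and of such a longer transcript cannot be told apart.

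*Cdh2* encodes N-cadherin, which joins myoblasts by binding to N-cadherin on the neighbouring cell. Located at 16588877 to 16809246 of chromosome 18 (minus strand), it held gene body levels of 48.0, 38.4 and 30.6 TPM in the Ctrl libraries, against 34.6, 42.8 and 43.6 TPM in those of *Kmt5b* sKO, a log2 difference of 0.07 ± 0.19. TSS levels of *Cdh2* were 31.7, 29.9 and 20.5 RPM in the Ctrl libraries, against 29.2, 31.7 and 25.3 RPM in those of *Kmt5b* sKO, a log2 difference of 0.09 ± 0.27. The groups overlapped in both regions, and Ctrl replicate 3 was the lowest library in each.

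*Ncam1* encodes the neural cell adhesion molecule, an immunoglobulin-type protein that is also made by activated satellite cells. The gene spans 49502136 to 49798925 of chromosome 9 (minus strand) and had 33806 to 63501 reads in its gene body of 296389 nt, the most of the 10 genes. These came to 121, 162 and 150 TPM in the Ctrl libraries, against 188, 174 and 197 TPM in those of *Kmt5b* sKO, a log2 difference of 0.38 ± 0.15. The *Kmt5b* sKO libraries lay above all Ctrl libraries, with a gap from 162 to 174 TPM. *Ncam1* had TSS levels of 200, 248 and 357 RPM in the Ctrl libraries, against 288, 283 and 438 RPM in those of *Kmt5b* sKO, a log2 difference of 0.34 ± 0.25. There the groups overlapped, and replicate 3 was the highest of both. Without *Kmt5b* sKO replicate 3 the TSS difference was 0.13, and without Ctrl replicate 3 it was 0.57. The curated RefSeq start nearest to the listed start lies 144 nt upstream of it.

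*Jam3* encodes JAM-C, a junctional adhesion molecule. On the same strand of chromosome 9 it spans 27097384 to 27155393. *Jam3* had gene body levels of 63.9, 64.5 and 33.3 TPM in the Ctrl libraries, against 53.7, 48.7 and 50.2 TPM in those of *Kmt5b* sKO, a log2 difference of -0.02 ± 0.25. Its TSS levels were 61.0, 44.2 and 27.1 RPM in the Ctrl libraries, against 58.4, 51.5 and 51.1 RPM in those of *Kmt5b* sKO, a log2 difference of 0.35 ± 0.27. Ctrl libraries gave the extremes on both sides, and without Ctrl replicate 3 the TSS difference was 0.04.

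*Cdon* encodes a co-receptor that binds cadherins at myoblast contacts and passes the signal on to p38 kinase. The listed isoform runs from 35421558 to 35507652 of chromosome 9 (plus strand). *Cdon* showed gene body levels of 147, 148 and 194 TPM in the Ctrl libraries, against 164, 184 and 184 TPM in those of *Kmt5b* sKO, a log2 difference of 0.13 ± 0.16. TSS levels of *Cdon* were 55.9, 47.1 and 86.0 RPM in the Ctrl libraries, against 61.3, 67.4 and 67.6 RPM in those of *Kmt5b* sKO, a log2 difference of 0.10 ± 0.24. Ctrl replicate 3 was the highest library in both regions and the groups overlapped. The curated RefSeq transcript starts 30518 nt downstream of the listed start, so that the listed TSS region lies upstream of that start.

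**Figure D3:**
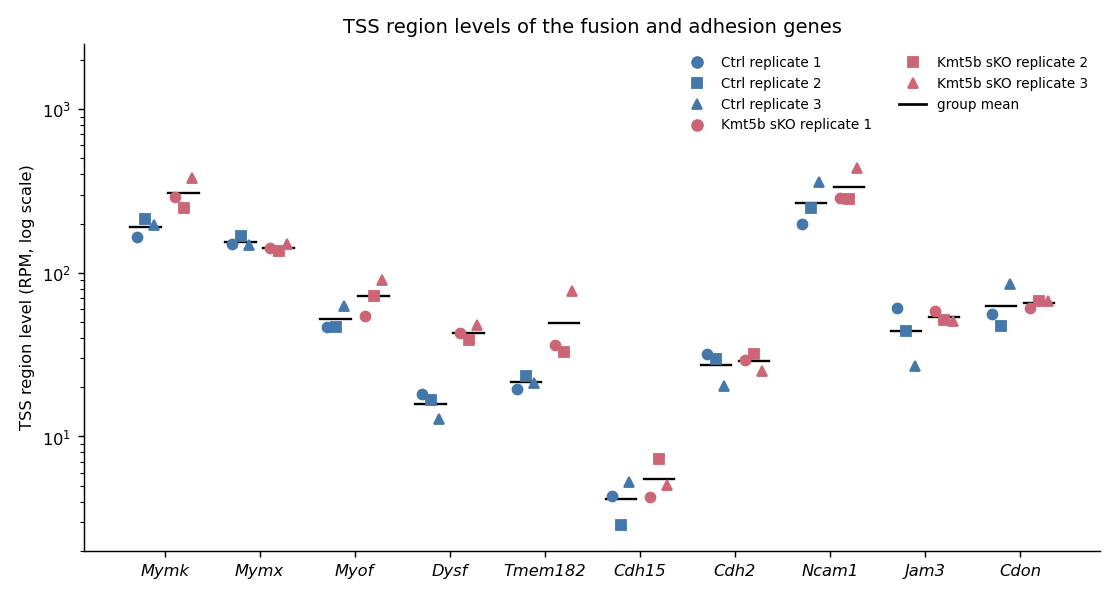
TSS region levels (RPM in the first 400 nt, log scale) of the 10 genes in 3 Ctrl (blue) and 3 Kmt5b sKO (red) libraries, with a marker shape per replicate and a bar at each group mean. Dysf, Tmem182 and Mymk had all Kmt5b sKO libraries above all Ctrl libraries, and Cdh15 lay lowest with 2.87 to 7.26 RPM.

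Across the 10 genes, the gene body mean on the log2 scale was higher in *Kmt5b* sKO for 7 and lower for *Mymx*, *Cdh15* and *Jam3*. The median difference was 0.10 for the 10 genes and 0.02 for all 12451 genes tested, of which 53.8% were higher. In the TSS region 9 were higher (8 with edgeR's scaling of recovered reads, where *Cdon* turned lower) and *Mymx* was lower. The median difference was 0.36 for the 10 genes and 0.08 for all genes tested, of which 58.2% were higher. In the gene body 3 of 10 genes (*Dysf*, *Tmem182* and *Ncam1*) had all *Kmt5b* sKO libraries above all Ctrl libraries, beside 12% of all genes, and 0 had them all below, beside 9.34%. In the TSS region it was 3 (*Dysf*, *Tmem182* and *Mymk*) beside 10.2%, and 0 beside 5.33%. A fit with limma across all genes called 2.99% of genes in the gene body (372 genes), among them *Tmem182*, and 1.66% in the TSS region (116 higher and 91 lower), among them *Dysf*, at a Benjamini-Hochberg adjusted p under 0.1. After centring each library on its median, the TSS split was 104 higher and 122 lower. As the genes were selected on this contrast, nothing is read from how many were called. With libraries left out in turn, 836 gene body calls were made without Ctrl replicate 3, 261 without Ctrl replicate 2 and 0 without any of the other 4, and *Tmem182* was called only without Ctrl replicate 3. TSS calls numbered 1 and 408 when Ctrl replicates 1 and 2 were left out, and leaving out replicates 1, 2 and 3 of *Kmt5b* sKO gave 16, 132 and 46, while *Dysf* was no longer called without replicate 1 of either group.

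**Figure D4:**
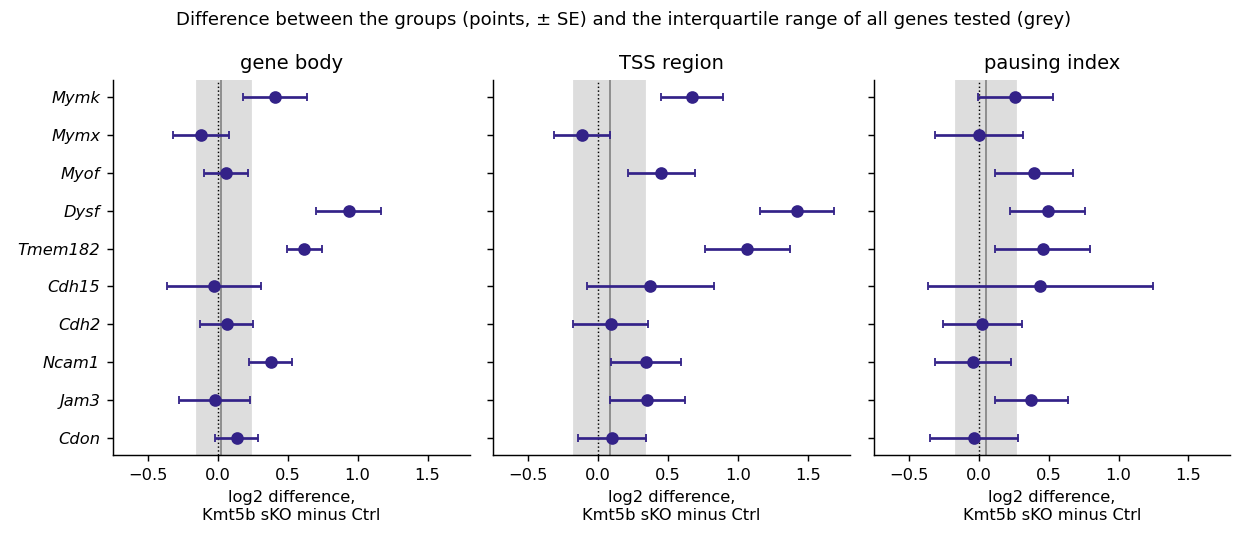
Log2 difference (Kmt5b sKO minus Ctrl, horizontal axis) of the 10 genes in the gene body, the TSS region and the pausing index, as points with SE from the limma fit (3 libraries per group). The grey band is the interquartile range of all genes tested, with its median as a grey line. Dysf (0.94 and 1.42) and Tmem182 (0.62 and 1.07) lay farthest to the right in the gene body and the TSS region, and Mymx (-0.12 in both) farthest to the left.

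The pausing index, the TSS level over the gene body level, compares polymerases near the start with those farther along. As its parts are scaled separately within each library, a change of all TSS levels against all gene body levels would not show. Between libraries the index shows only changes relative to other genes, and it has no absolute zero of pausing. The median over the genes above 0 in every library was 1.47 to 1.61 per library, whereas the median over the 10 fusion and adhesion genes was 0.699, 0.709 and 0.741 in the Ctrl libraries, against 0.928, 0.887 and 1.07 in those of *Kmt5b* sKO. Only *Ncam1*, with 1.66, 1.53 and 2.38 in the Ctrl libraries, against 1.53, 1.63 and 2.22 in those of *Kmt5b* sKO, exceeded the median of its library, in 5 of 6 libraries. At the other end *Cdh15* had 0.016 to 0.047, with 5 to 28 TSS reads behind it. *Cdon* had 0.32 to 0.44 and *Mymx* 0.40 to 0.69 over all 6 libraries. The curated RefSeq starts of *Cdh15* and *Cdon* lie 408 and 30518 nt downstream of the listed starts, beyond their TSS regions. The low indices of these genes may therefore come from the position of the region and cannot be read as little pausing.

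Between the groups, the pausing index of *Dysf* was 0.899, 0.644 and 0.935 in the Ctrl libraries, against 1.26, 1.08 and 1.12 in those of *Kmt5b* sKO, a log2 difference of 0.49 ± 0.27. That of *Jam3* was 0.955, 0.686 and 0.813 in the Ctrl libraries, against 1.09, 1.06 and 1.02 in those of *Kmt5b* sKO, a log2 difference of 0.38 ± 0.26. For these 2 genes all *Kmt5b* sKO libraries were above all Ctrl libraries, beside 5.93% of all genes, and 0 genes had them all below, beside 3.09%. The index of *Mymk* was 0.887, 0.725 and 1.08 in the Ctrl libraries, against 1.01, 1.03 and 1.14 in those of *Kmt5b* sKO, and that of *Mymx* was 0.571, 0.694 and 0.403 in the Ctrl libraries, against 0.563, 0.566 and 0.503 in those of *Kmt5b* sKO. For both the groups overlapped, with log2 differences of 0.26 ± 0.27 and 0.00 ± 0.32. *Tmem182* reached 1.50 in *Kmt5b* sKO replicate 3 and 0.631 to 0.767 in the other 5 libraries. The limma fit called 0% of 11698 genes, of which 452 had an unadjusted p under 0.05, none of them among the 10. As a mean of log2 values, the index was higher in *Kmt5b* sKO for 8 of the 10 genes and for 57.3% of all genes. After centring each library on its median, it was higher for 6 of the 10. *Mymx* was among the 8, although its mean without logs was 0.556 in Ctrl and 0.544 in *Kmt5b* sKO.

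**Figure D5:**
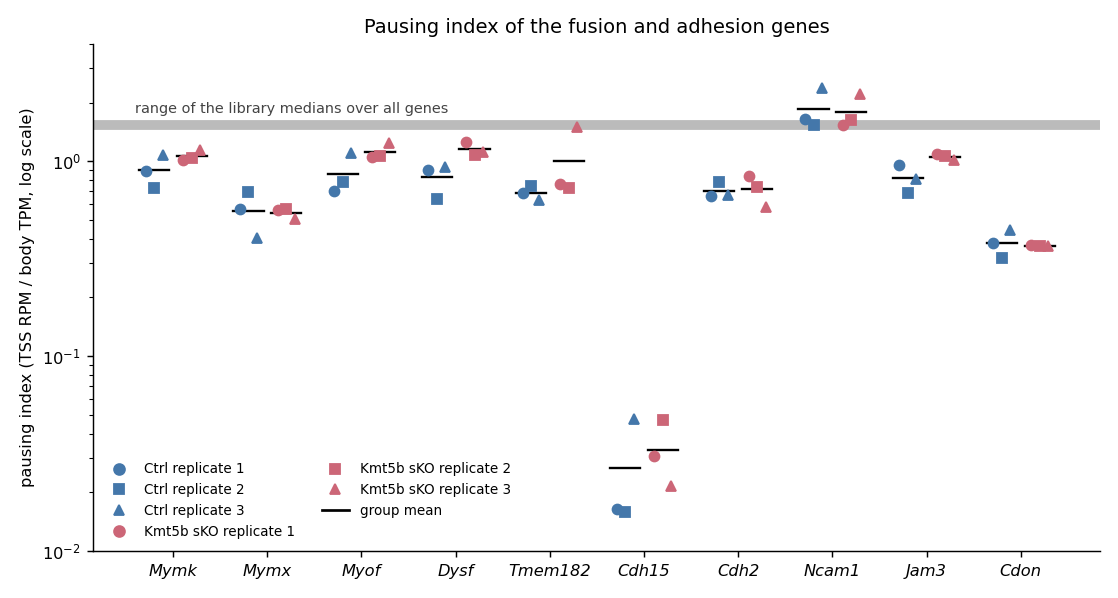
Pausing index (TSS RPM over gene body TPM, log scale) of the 10 genes in 3 Ctrl (blue) and 3 Kmt5b sKO (red) libraries, with a bar at each group mean. The grey band is the range of the library medians over all genes, 1.47 to 1.61. Ncam1 reached above it, Cdh15 lay far below it with 0.016 to 0.047, and the other 8 genes lay below it or at it. The curated RefSeq starts of Cdh15 and Cdon lie beyond their listed TSS regions.

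Other genes of adhesion and fusion were listed by their known roles, none of them among the 10, with earlier results of these data known, so that their counts are not independent evidence. Of 88 names 79 were in the table and 77 were tested. Here and in the lists below, a higher or lower mean is a mean of log2 values. In the gene body 52 had a higher and 25 a lower mean in *Kmt5b* sKO, with a median log2 difference of 0.11 and 0 called, beside the 2.99% of all genes. In the TSS region 56 were higher and 21 lower, with a median of 0.22, and 5 passed the test (6.49%, beside 1.66% of all genes). All 5 rose, namely *Itga4*, *Ano5*, *Cav3*, *Mef2c* and *Fst*. Without a filter on low values, without a trend in eBayes or without Ctrl replicate 1, 0 of the 5 passed. Only *Cav3* passed without *Kmt5b* sKO replicate 1 or replicate 3, *Itga4* and *Fst* did not pass without Ctrl replicate 3, and *Itga4* did not without *Kmt5b* sKO replicate 2.

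Among adhesion receptors 15 of 19 had a higher gene body mean in *Kmt5b* sKO, with a median log2 difference of 0.36, beside 0.02 over all genes tested. *Itga4*, an integrin chain whose partner is the adhesion molecule *Vcam1*, rose in the TSS region from 4.64 ± 2.96 to 18.1 ± 9.48 RPM (SD, n = 3), with a limma adjusted p of 0.0709. *Mcam* held 4.54 ± 0.65 TPM in the Ctrl gene body and 7.69 ± 1.63 TPM in *Kmt5b* sKO, and the tetraspanin *Cd81* held 73.8 ± 14.4 and 113.9 ± 26.4 TPM, neither past the test. Of 5 catenins tested, which tie cadherins to actin, 4 had a higher gene body mean (median 0.16) and 0 passed, with *Jup* at 21.8 ± 2.53 and 28.3 ± 4.16 TPM, *Ctnnal1* at 4.62 ± 1.32 and 5.65 ± 1.28 TPM and *Ctnna1* at 46.8 ± 3.35 and 52.2 ± 0.62 TPM. Of 20 genes of actin remodelling 14 were higher and 6 lower in the gene body, with a median of 0.06, and 0 passed. The largest gene body differences among them were those of the exchange factor *Dock5* (log2 difference 0.74 ± 0.30), of *Wipf1* (-0.48 ± 0.18) and of *Arhgap26* (0.33 ± 0.22).

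*Ano5*, a muscle anoctamin whose loss causes a muscular dystrophy much like that of Dysferlin, rose in the TSS region from 40.7 ± 4.05 to 89.3 ± 28.6 RPM (limma adjusted p = 0.0580). The other 4 genes tested of the phosphatidylserine list, which includes *Anxa1* (gene body log2 difference -0.19 ± 0.22) and *Ano6* (-0.19 ± 0.15), had a lower gene body mean in *Kmt5b* sKO and did not pass, and the median of the list was -0.14. *Cav3*, the caveolin of muscle, which binds Dysferlin, rose in the TSS region from 62.2 ± 9.93 to 147.6 ± 25.9 RPM (limma adjusted p = 0.0289). The libraries did not overlap, with 51.1, 70.1 and 65.5 RPM in the Ctrl libraries, against 139, 127 and 177 RPM in those of *Kmt5b* sKO. The protease *Capn3* and the caveolin *Cav1* of the same list of 11 ferlin and membrane repair genes, of which 7 were higher in the gene body (median 0.19), did not pass, with gene body differences of 1.04 ± 0.35 and -0.81 ± 0.26. Of 17 genes listed as signals upstream of fusion 11 were higher in the gene body (median 0.13), a count that includes *Ckm*, an enzyme and not a signal. *Mef2c*, a transcription factor of differentiation among them, rose in the TSS region from 43.6 ± 20.1 to 109.8 ± 47.0 RPM (limma adjusted p = 0.0718). Its groups overlapped, with 65.5 RPM in Ctrl replicate 2 and 58.1 RPM in *Kmt5b* sKO replicate 2. *Fst*, the inhibitor of myostatin and activin, rose from 6.55 ± 2.37 to 19.3 ± 7.17 RPM (limma adjusted p = 0.0855). *Ckm*, the muscle creatine kinase, held 23.1 ± 12.6 TPM in the Ctrl gene body and 37.6 ± 12.2 TPM in *Kmt5b* sKO and did not pass. *Ckm*, *Mef2c* and *Myog* of this list also served as markers of differentiating myocytes, of which 8 of 9 had a higher gene body mean in *Kmt5b* sKO.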

How the data were processed

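PRO-seq libraries of proliferating Ctrl and *Kmt5b* sKO MuSCs (n = 3 each) were grouped by their titles. According to the submitters' processing notes and the methods, the authors used Trimmomatic 0.39 for trimming, STAR 2.6.1d for alignment to GRCm38, with multimapping reads placed at 1 random position, and Picard 2.18.16 for removal of duplicates. They counted reads on the strand of the gene in the TSS region and the gene body and listed 1 isoform per gene. The TSS values the authors deposited, headed TPM, are RPM, since all TSS regions have 400 nt and every low value was a whole multiple of the value of 1 read. The gene body values the authors deposited are TPM. The tests had been planned for TPM and were used for RPM unchanged.

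Genes outside chromosomes X and Y with means of at least 0.5 in both regions were tested (12451, all 10 fusion and adhesion genes among them). Values were fitted as log2(value + 0.5) with limma 3.58.1 (lmFit, eBayes with a trend, genotype as the only term) in R 4.3.3 and called below an adjusted p (Benjamini-Hochberg) of 0.1. A fold change on this scale understates that of low genes. The pausing index was fitted as a log2 ratio without a pseudocount for 11698 genes above 0 in all libraries. The fit was also run on simulated reads, drawn with the same relative spread for every gene. That run does not show how far the calls here depend on single libraries. Reads were recovered from the steps between values, and 100% of the low values checked were whole within 0.1 of a read, with median TSS reads per tested gene of 35 to 107 and gene body reads of 203 to 468. They were tested with edgeR 4.0.16. This test and a fit with Y-linked transcription as a term (*Ddx3y*, *Eif2s3y*, *Kdm5d* and *Uty*) were added after seeing the data.

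The members, gene lists and tests were chosen with earlier results of these data known. All 10 members are named. Of each further list, the genes past the threshold are named and, where these are fewer than 3, those with the largest gene body difference up to 3. Promoter sequences are those of RefSeq (GRCm38.p6), and positions are as the authors list them. Alternatives were other pseudocounts, filters, centring, no trend, X and Y kept, the replicate number as a block, and leaving out each library.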

Additional observations from a re-analysis of the deposited data

How the results depend on the processing

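In the gene body, 372 genes and 1 member (*Tmem182*) passed the threshold. With the replicate block these counts were 0 and 0 (1441 genes and 2 members at an unadjusted p under 0.05), with edgeR on recovered reads 748 and 2, with Y-linked transcription as a term 1037 and 2, and at an adjusted p under 0.05 they were 1 and 0. Centring the libraries on their median gave 502 genes and 2 members. Leaving out single libraries gave 0 to 836 genes and 0 to 2 members. The further member called in these cases was *Dysf*. In the TSS region, 207 genes and 1 member (*Dysf*) passed. The counts were 0 and 0 without a filter on low values, without a trend in eBayes and with the replicate block (1448, 1292 and 1141 genes at an unadjusted p under 0.05; of the 5 further fusion genes called, 0 passed in each), 64 genes at an adjusted p under 0.05, and 1 to 408 genes and 0 to 2 members without single libraries. With edgeR 2 members (*Dysf* and *Tmem182*) passed, and with Y-linked transcription as a term 544 genes and 3 members (*Mymk* too). For the pausing index the count of 0 became 1 with a pseudocount of 0.5 and stayed at 0 in the other alternatives, with 0 to 0 members without single libraries. The causes were not tested.

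The titles do not say that the replicate numbers pair the samples. Deviations of same-numbered libraries from their group means correlated at -0.329 to -0.153 in the gene body and -0.163 to -0.034 in the TSS region. Same-numbered libraries thus did not vary together. The replicate block left 0 genes called, but it also leaves fewer degrees of freedom, so this count cannot tell whether samples were paired. Over the 16 alternatives that refitted them, the differences of *Dysf*, *Tmem182*, *Mymk* and *Ncam1* kept their sign in both regions. Those of *Mymx*, *Cdh15*, *Jam3* and *Myof* did so in the TSS region alone, and that of *Cdon* in the gene body alone. The gene body difference of *Mymx* turned to 0.06 without Ctrl replicate 3, and those of *Cdh15* and *Jam3* to 0.43 and 0.24 with Y-linked transcription as a term. Depth limits *Cdh15* in the TSS region (5 to 28 reads) and *Mymx* in the gene body (109 to 366 reads). The TSS regions and pausing indices of *Cdh15* and *Cdon* are also limited by listed starts that lie upstream of the curated RefSeq starts.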
